A study of Mus musculus with 10 samples.

Results

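The genes described here encode the proteins of the mitochondrial ribosome. They were chosen by name, as every row of the deposited rate table whose symbol begins with Mrpl or Mrps followed by a digit, and 75 of the 8590 genes of the table met this rule. The letter after Mrp gives the subunit for which a gene was named, and 46 members carry the large-subunit name and 29 the small-subunit name. Placed by structure, 48 members belong to the large subunit and 26 to the small subunit, because Mrps18a and Mrps30 sit in the large subunit. The remaining member, Mrps36, is no part of the ribosome and is now assigned to the 2-oxoglutarate dehydrogenase complex. Of the 74 subunit genes, 45 are counted as having a bacterial counterpart and 29 as specific to mitochondria. Mrps18a and Mrps18b are counted among the 29, although they are paralogs of Mrps18c, which is among the 45.

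RNA turnover was measured in cultured mouse cortical neurons of 2 genotypes, wild type and Fmr1-KO, both given in the labels as strain FVB.129P2-Pde6b+ Tyrc-ch/AntJ. Fmr1 encodes the RNA-binding protein FMRP, whose loss causes fragile X syndrome. Cortices came from E18 embryos and the neurons were used at DIV 14, after 14 days in vitro. Cells took up 200 µM 5-ethynyluridine, a uridine analogue that marks new RNA, for 20 or 60 min, so each genotype has 1 labelled library at each time. From these 4 libraries the authors derived a synthesis rate, a processing rate (pre-mRNA to mature mRNA) and a degradation rate for each gene with INSPEcT, on a linear scale whose time unit is not given in the sources used here. All libraries received labelled fly RNA and unlabelled yeast RNA as spike-ins. The 20 and 60 min libraries stand as the 2 replicates of a genotype, and nothing in the labels says that they came from separate cultures, so p-values measure only the spread between these libraries.

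Mitochondria keep their own small genome and their own ribosomes, which translate only a handful of membrane proteins of the respiratory chain. The ribosomal RNAs are transcribed inside the organelle, whereas every protein of the mitochondrial ribosome is encoded in the nucleus, made in the cytosol and imported. The small subunit binds and decodes the mitochondrial mRNA, and the large subunit holds the peptidyl transferase centre; neurons rely on the respiratory chain for the energy demands of their synapses.

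Fmr1, the targeted gene, was synthesised at rates of 0.810 and 0.692 (20 and 60 min) in wild type, against 2.06 and 1.56 in knockout neurons. In wild type the quotient of its synthesis and degradation rates was 10.5 and 10.3, against 0.800 and 0.586 in knockout neurons. Of 9 neuron markers, 2 were among the genes with rates analysed here (Rbfox3 and Gad2), as were 2 of 5 astrocyte and 4 of 6 oligodendrocyte-lineage markers, and 0 of 4 microglial and 0 of 2 endothelial markers. Gad2, Aqp4, Pdgfra and Sox10 had no rate in either knockout library and Mbp had none in the knockout at 20 min, so sums of the markers would cover different genes in the genotypes and are not compared. Of those with a rate in every library, Rbfox3 was synthesised at 2.77 and 1.24 in wild type, against 2.15 and 0.844 in knockout neurons. The values for Aldh1l1, an astrocyte gene, were 2.11 and 1.11, against 2.76 and 1.23, and those for Olig2, of the oligodendrocyte lineage, 17.96 and 12.6, against 20.2 and 13.8. Defining neuron markers such as Tubb3, Map2 and Snap25 were not analysed here, and the part of cell composition in the results below was not tested. Depth per library is not given with the rates, and fewer cells of a type and less RNA per cell cannot be told apart in these bulk samples.

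The members were short next to the other coding genes of the table. In the GENCODE M21 annotation (GRCm38) their median gene length was 7905 bp, against 27524 bp over the 8319 protein-coding genes of the rate table, and their median transcript length was 1223 bases against 2982. The median member had 5 exons, against 9, and a coding sequence of 588 bases, against 1455. Their start sites often faced another gene: in 17 members (22.7%) a protein-coding gene began on the opposite strand within 1000 bp upstream, against 10.7% of all coding genes of the table. Related families were short too. In the 58 cytosolic ribosomal protein genes median gene and transcript lengths were 3328.5 bp and 777.5 bases. Of these genes 10.3% faced such a start, near the share of all coding genes. In 47 nuclear genes of oxidative phosphorylation the medians were 8107 bp and 763 bases, and 27.7% faced such a start. The gaps ran from 26 bp (Mrpl54 and Apba3) to 935 bp (Mrpl41 and Pnpla7), with a median of 83 bp. Some partners belong to mitochondrial gene expression themselves: Mrps12, a protein of the decoding centre, lay 172 bp from Sars2, the mitochondrial seryl-tRNA synthetase, and Mrps27 lay 81 bp from Ptcd2, a mitochondrial RNA-binding protein. In addition, 25 members (33.3%) overlapped another protein-coding gene, against 25.2% of coding genes of the table, and how the authors' counting treated such reads is not given in the sources used here.

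Promoters of 66 members were matched in RefSeq (GRCm38.p6; 250 bases before to 50 after the start), 51 of them with a start within 100 bases of the GENCODE start. Short words bound by regulators of nuclear genes for mitochondrial proteins were searched on both strands. The ETS word CCGGAAG, the core of sites for GABPA (also called NRF2), stood in 22 of 66 member promoters (33.3%), in 20.3% of the 6599 promoters of coding genes in the rate table and in 12.3% of all 16515 coding promoters. The NRF1 core GCATGCGC stood in 8 (12.1%), against 6.08% and 3.73%. The YY1 core AAGATGG stood in 13 (19.7%), against 8.08% and 6.54%. The SP1 word GGGCGG stood in 32 (48.5%), against 69.3% and 48.3%, and the TATA box word TATAAA in 4 (6.06%), against 5.88% and 12.9%. The NRF1 core overlaps itself on the opposite strand, so a full palindrome was 1 promoter hit with 2 positions.

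The 120 bases before the RefSeq start are printed for 6 members, each 5′ to 3′ on the gene's own strand, with NRF1 core, ETS and YY1 core words in capitals. Mrpl27 (chr11:94653671-94653790, plus strand) had the largest rise in degradation rate and holds an ETS word. Mrpl9 (chr3:94443216-94443335, plus strand) holds the full NRF1 palindrome, and Mrpl22 (chr11:58171544-58171663, plus strand) holds an ETS word and an NRF1 core. Mrpl17 (chr7:105811088-105811207, minus strand) had the highest wild-type degradation rate by geometric mean over the times and has an NRF1 core next to its start. Mrps11 (chr7:78783011-78783130, plus strand) holds the YY1 core on the opposite strand, and Mrps2 (chr2:28467946-28468065, plus strand), with the highest wild-type synthesis rate by the same measure, holds none of the 3 words in this stretch.
Mrpl27: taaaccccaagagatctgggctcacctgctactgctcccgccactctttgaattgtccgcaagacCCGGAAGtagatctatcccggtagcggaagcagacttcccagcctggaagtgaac
Mrpl9: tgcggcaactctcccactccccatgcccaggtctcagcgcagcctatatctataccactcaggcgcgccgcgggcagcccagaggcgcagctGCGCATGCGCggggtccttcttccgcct
Mrpl22: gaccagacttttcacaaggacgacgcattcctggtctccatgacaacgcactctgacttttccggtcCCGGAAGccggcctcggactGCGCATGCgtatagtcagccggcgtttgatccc
Mrpl17: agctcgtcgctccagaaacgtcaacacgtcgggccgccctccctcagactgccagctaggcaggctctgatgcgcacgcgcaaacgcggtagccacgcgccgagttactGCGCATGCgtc
Mrps11: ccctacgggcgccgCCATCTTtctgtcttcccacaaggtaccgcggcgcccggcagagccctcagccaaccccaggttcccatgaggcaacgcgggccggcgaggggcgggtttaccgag
Mrps2: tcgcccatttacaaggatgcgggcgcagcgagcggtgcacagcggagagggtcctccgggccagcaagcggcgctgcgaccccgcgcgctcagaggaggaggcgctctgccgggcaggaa

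Rates were not listed for every member in every library, and the gaps lay mostly in the knockout. Of the 75 members, 67 and 66 had a degradation rate above 0 in wild type (20 and 60 min), and 49 and 45 did so in the knockout. Rates in all 4 libraries were available for 41 members (54.7%), against 66.5% of all 8590 genes. In 19 of the 66 members with both wild-type rates (28.8%), neither knockout library had a degradation rate above 0, against 19.5% of the 7914 genes with both wild-type rates. For synthesis rate the members' share was also 28.8%, against 17.8% of all genes with both wild-type rates. These 19 comprised 10 large-subunit and 9 small-subunit genes. The 3 of them with the highest wild-type synthesis rates were Mrps26 (2.72 and 2.83), Mrps16 (2.47 and 2.64) and Mrpl33 (3.02 and 0.984), the first mitochondria-specific and the others with bacterial counterparts. Their wild-type degradation rates overlapped those of members with all rates: the 20 min values ran from 0.0547 to 0.393, median 0.162, against 0.0433 to 0.644, median 0.126, and the 60 min medians were 0.116 against 0.118.

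**Figure D1:**
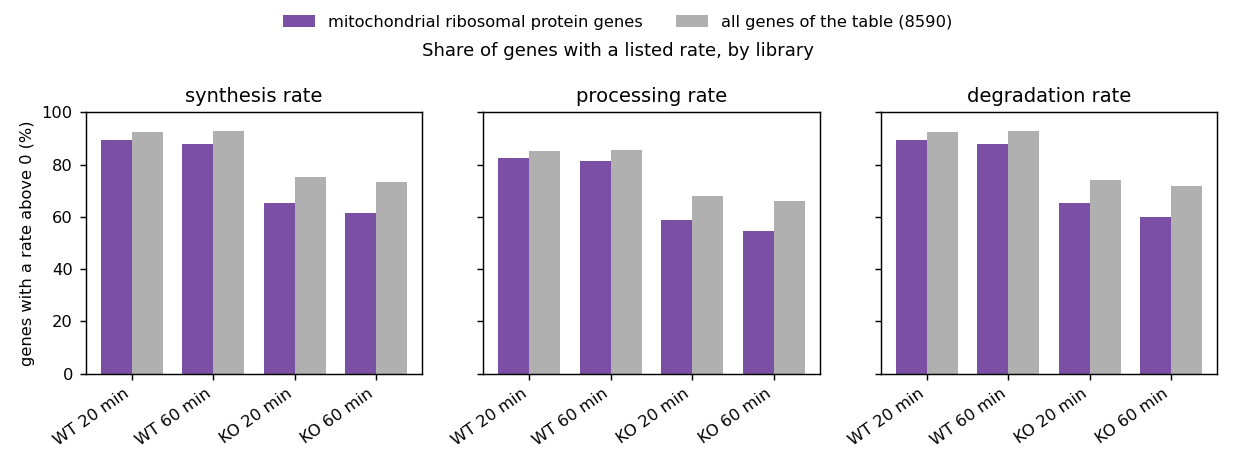
Share of genes with a rate above 0 (vertical axis, percent) in each labelled library, for the 75 mitochondrial ribosomal protein genes and all 8590 genes, in panels for the 3 rates. For degradation the members fall from 89.3% and 88.0% in wild type to 65.3% and 60.0% in the knockout.

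The reverse pattern was found in 2 of the 43 members with both knockout rates (4.65%), against 2.84% of the 5913 genes with them. Mrpl11, a protein of the region that recruits translation factors, and Mrpl16 had degradation rates in both knockout libraries and in neither wild-type library (0.149 and 0.154 for Mrpl11, 0.320 and 0.380 for Mrpl16). Another 5 members (Mrpl36, Mrpl43, Mrpl46, Mrpl49 and Mrps34) had no degradation rate in any library, and 8 had a partial set. The genes without a rate cannot enter the comparison of genotypes, which therefore rests on 42 members for synthesis, 35 for processing and 41 for degradation.

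In wild type, members were made at rates typical of the table. Their median synthesis rate was 1.08 at 20 min and 0.876 at 60 min, against 1.06 and 1.02 over all genes. Mrps2, a core protein of the small subunit, had the highest synthesis rate of the members by geometric mean (2.49 and 4.06), followed by Mrpl32 (2.44 and 3.74) and Mrpl44 (2.55 and 3.21), a large-subunit protein with a ribonuclease III fold. Their ranges overlap, so the order of these 3 is not resolved by the libraries. The lowest were Mrpl48 (0.156 and 0.143), Mrps33 (0.146 and 0.250) and Mrpl55 (0.298 and 0.355), all mitochondria-specific, and both libraries of each lay well below both of the leading genes.

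Wild-type degradation rates of the members had a median of 0.138 at 20 min and 0.117 at 60 min, against 0.111 at each time over all genes. By geometric mean over the times, the highest were those of Mrpl17 (0.644 and 0.331), Mrps14 (0.393 and 0.396) and Mrpl50 (0.297 and 0.450), whose ranges overlap. The lowest were those of Mrps21 (0.0480 and 0.0398), Mrpl30 (0.0389 and 0.0620) and Mrps15 (0.0652 and 0.0419). Each of the last 3, which have bacterial counterparts, lay below each of the first 3 in both libraries.

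**Figure D2:**
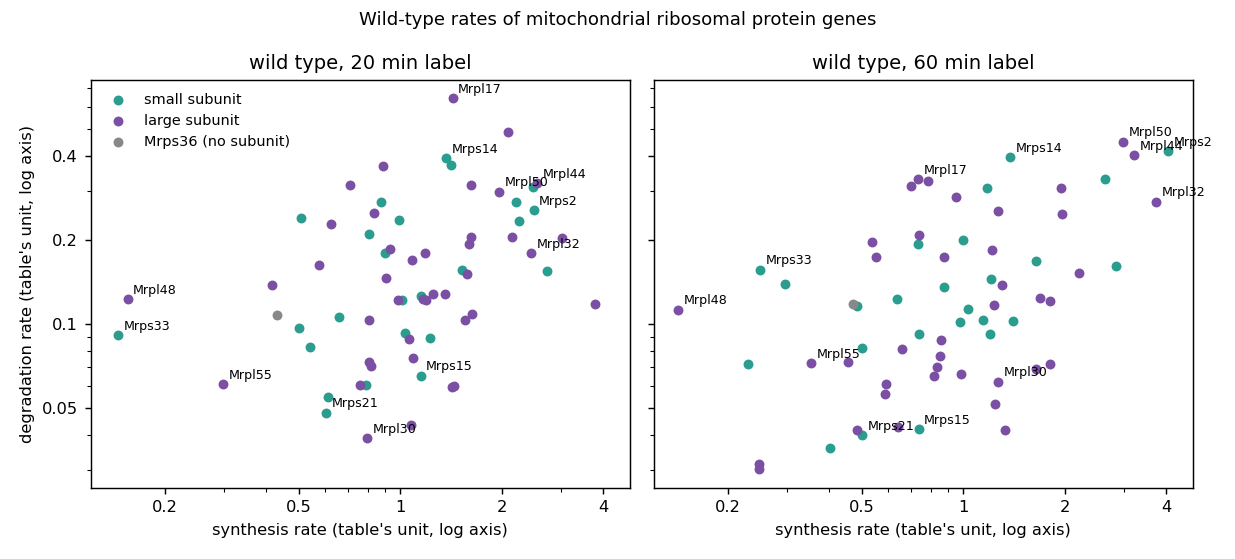
Wild-type synthesis rate (horizontal, log axis) against degradation rate (vertical, log axis) of each member at 20 min and 60 min, in the table's unit and coloured by subunit. Small-subunit and large-subunit genes are intermingled, with Mrpl48 and Mrps33 at the left edge and Mrpl17 at the top at 20 min.

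Processing rates in wild type had medians of 6.74 and 5.67, against 7.37 and 7.25 over all genes. By geometric mean over the times, the highest belonged to Mrpl50 (21.4 and 32.4), Mrpl35 (22.6 and 21.1) and Mrps23 (20.4 and 22.0). The lowest belonged to Mrpl24 (1.62 and 0.495), Mrps17 (1.16 and 1.33) and Mrpl55 (1.33 and 1.58). The 2 extremes were far apart relative to the difference between the times.

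The times of wild type are not independent measures of these rates. The quotient of synthesis and degradation rate did not change between 20 and 60 min, with a tolerance of 0.001 on the log2 scale, in 59 of 66 members of wild type and in 1 of 43 in the knockout. For synthesis and processing the same held in 58 of 58 members of wild type and in 2 of 37 in the knockout. The spread between times in wild type thus mostly repeats the spread of synthesis, for all rates, and this bears on every standard error below. Over the 41 members with rates in all libraries, the median quotient of synthesis and degradation rate was 3.56 and 3.29 in the knockout (20 and 60 min), below the 8.08 of wild type at each time. Over the 5705 to 5716 genes with those rates it was 6.30 and 5.84, below 9.35 at each time.

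Degradation rates of the mitochondrial ribosomal protein genes were mostly higher in the knockout. Over the 41 members fitted, the median log2 change (knockout minus wild type) was 1.32, with 1.21 at 20 min and 1.03 at 60 min, against 0.65 over all 5716 genes tested. The change lay above 0 in 34 of 41 members (82.9%), against 68.1% of all genes, and after centring in 26 (63.4%), against 44.5%. Both knockout libraries exceeded both wild-type libraries in 30 members, against 52.6% of all genes, and lay below both in 4, against 16.5%. The change was above 0 at both times in 32 members, against 62.1% of all genes. By limma with Benjamini-Hochberg adjustment over all genes, 10 of the 41 members rose (24.4%), against a background of 20.5% called higher, and 0 fell, against 2.57% called lower, so the share called is near the background. An unadjusted p under 0.05, in either direction, was found for 23 of the 41 (56.1%), against 43.1% of all genes.

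With labelling time as a block, a pairing that the labels give, 22 members rose and 2 fell (Mrps7 and Mrps30), against 38.2% and 9.76% of all genes, and all 10 were among the 22. The count of rises depends on the scale between libraries. Without the block, centring the libraries on their medians takes out a shift of 0.86 and left 1 member higher (Mrpl27) and 0 lower, against 0.56% and 1.05% of all genes, with a median of 0.46 over the members. With the block and centring together, 8 members were higher and 4 lower (Mrpl17, Mrpl39, Mrps7 and Mrps30), against 13.9% and 22.4% of all genes. What sets this shift was not tested.

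**Figure D3:**
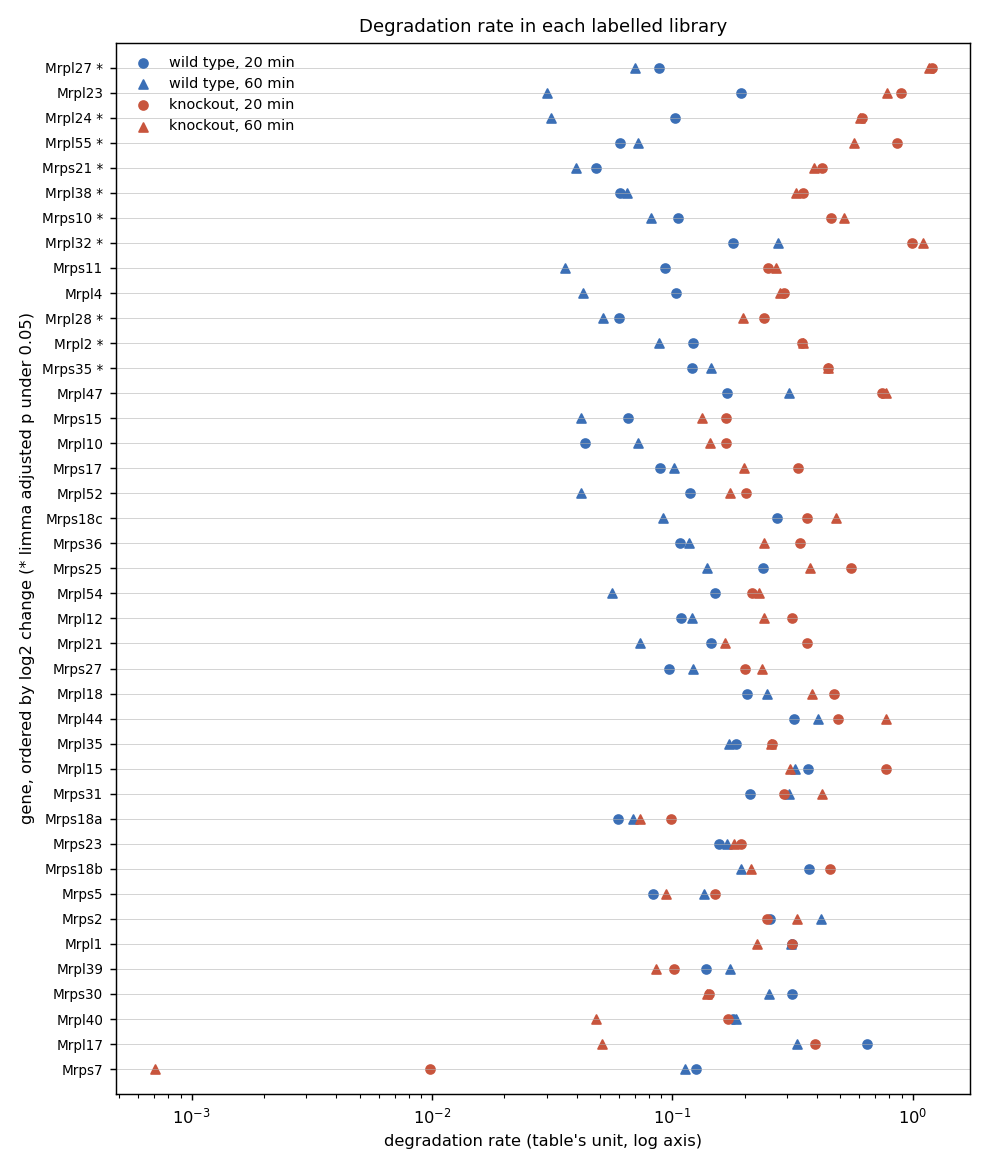
Degradation rate (log axis, table's unit) of the 41 members with a rate in all 4 libraries; blue is wild type and red is knockout, circles are 20 min and triangles 60 min, and genes are ordered by log2 change with an asterisk for limma adjusted p under 0.05. In the called genes both knockout values lie to the right of both wild-type values, and Mrps7 lies far to the left in the knockout.

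The members that rose included 7 large-subunit genes. Mrpl27, whose bacterial counterpart reaches into the peptidyl transferase centre (chr11:94653767-94660089, GRCm38, plus strand, 4 exons), had degradation rates of 0.0884 and 0.0698 in wild type, against 1.20 and 1.17 in knockout neurons. The knockout values lay far above those of wild type, a log2 difference of 3.91 (SE 0.33, limma adjusted p = 0.0235). Its synthesis rates were 1.06 and 0.836 in wild type, against 1.22 and 1.02 in knockout neurons, so that the genotypes overlapped for synthesis. Mrpl27 overlaps Eme1 in the annotation.

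Mrpl24, the counterpart of a bacterial assembly-initiating protein (chr3:87919506-87923672, plus strand, overlapping Rrnad1), had degradation rates of 0.103 and 0.0314 in wild type, against 0.614 and 0.605 in knockout neurons. The wild-type times were far apart and the groups did not overlap, with a log2 difference of 3.42 (SE 0.66, limma adjusted p = 0.0339). Mrpl55, a mitochondria-specific protein (chr11:59202486-59206134, plus strand), had rates of 0.0607 and 0.0721 in wild type, against 0.860 and 0.569 in knockout neurons. Both knockout values were higher, with a log2 difference of 3.40 (SE 0.38, limma adjusted p = 0.0235).

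Mrpl38, another mitochondria-specific protein (chr11:116131817-116138868, minus strand, 9 exons), had degradation rates of 0.0605 and 0.0648 in wild type, against 0.350 and 0.327 in knockout neurons. The times agreed closely within each genotype and the log2 change was 2.43 (SE 0.32, limma adjusted p = 0.0235). Mrpl32, which in yeast and mammals is cut on import by the m-AAA protease (chr13:14608184-14613165, minus strand, with Psma2 75 bp upstream), had rates of 0.179 and 0.274 in wild type, against 0.994 and 1.11 in knockout neurons. These were high among the members in both genotypes, and the log2 change was 2.24 (SE 0.38, limma adjusted p = 0.0282).

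Mrpl28 (chr17:26123500-26126613, plus strand) had degradation rates of 0.0600 and 0.0514 in wild type, against 0.240 and 0.197 in knockout neurons, a log2 difference of 1.97 (SE 0.33, limma adjusted p = 0.0282). Mrpl2, a protein that lies against the peptidyl transferase centre (chr17:46646229-46650139, plus strand), had rates of 0.122 and 0.0878 in wild type, against 0.348 and 0.350 in knockout neurons, a log2 difference of 1.75 (SE 0.35, limma adjusted p = 0.0362). In both genes the knockout libraries lay above the wild-type libraries with no overlap.

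The small subunit contributed the other 3. Mrps21 (chr3:95862634-95871519, minus strand), whose transcript of 405 bases is the shortest of the members, had degradation rates of 0.0480 and 0.0398 in wild type, against 0.422 and 0.390 in knockout neurons. It had the lowest wild-type rate of the members by geometric mean, and in the knockout it lay above the members' medians of 0.314 and 0.241, a log2 difference of 3.21 (SE 0.33, limma adjusted p = 0.0235). Mrps10, a protein of the head of the small subunit (chr17:47368887-47381417, plus strand), had rates of 0.106 and 0.0819 in wild type, against 0.460 and 0.516 in knockout neurons, a log2 difference of 2.39 (SE 0.34, limma adjusted p = 0.0235). Mrps35, a mitochondria-specific protein (chr6:147042764-147073991, plus strand), had rates of 0.121 and 0.145 in wild type, against 0.446 and 0.444 in knockout neurons, a log2 difference of 1.75 (SE 0.32, limma adjusted p = 0.0313). The groups were separate in all 3 genes.

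Among the 10 called genes the log2 change of synthesis rate ran from -0.37 to 1.35, with a median of 0.32, and none of these passed the test. After centring, the limma adjusted p was 0.0497 for Mrpl27 and 0.0502 for Mrps21, with the remaining 8 above these. With the block and centring together, 8 of the 10 passed, and Mrpl2 and Mrps35 did not (limma adjusted p = 0.0835 and 0.0677). Leaving out the 60 min wild-type library, the 60 min knockout library or the 20 min knockout library ended all 10 calls, and leaving out the 20 min wild-type library kept 7 of them.

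Not every member moved that way. Of the 31 fitted members that were not called, 24 lay above 0 and 7 below, and 10 had an adjusted p from 0.05 to 0.07. Mrpl23 and Mrps7 are singled out after their values were seen. Mrpl23 had degradation rates of 0.194 and 0.0301 in wild type, against 0.893 and 0.783 in knockout neurons, and its log2 change of 3.45 (SE 0.97) had a limma adjusted p of 0.0666, or 0.0239 with labelling time as a block and 0.0632 with the block and centring. Its wild-type times lay far apart. Mrps7, a protein of the head of the small subunit, went the other way, with rates of 0.126 and 0.113 in wild type, against 0.00979 and 0.000703 in knockout neurons. Its log2 change was -5.51 (SE 1.33, limma adjusted p = 0.0511; 0.0191 with the block), while its synthesis rates were 1.15 and 1.03 in wild type, against 0.984 and 0.900 in knockout neurons. The genotypes were separate for both rates. The knockout degradation rates of Mrps7 were the lowest of the members in each library and lay far apart. Both were below the 10th percentile of all listed degradation rates (0.0431), so the size of the Mrps7 change rests on very low values.

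The paralogs of one bacterial protein did not pass the test. Mrps18a, in the large subunit, had a log2 difference of 0.42 (SE 0.35), Mrps18b 0.20 (SE 0.58) and Mrps18c 1.40 (SE 0.63), with limma adjusted p of 0.409, 0.810 and 0.168. After centring, Mrps18a was at -0.44 and Mrps18b at -0.65. Mrps30, a large-subunit protein in spite of its name, had degradation rates of 0.314 and 0.253 in wild type, against 0.142 and 0.140 in knockout neurons, a log2 difference of -1.0 (SE 0.33, limma adjusted p = 0.0908; 0.0481 with the block). Mrps36 had rates of 0.108 and 0.118 in wild type, against 0.340 and 0.240 in knockout neurons, a log2 difference of 1.34 (SE 0.36, limma adjusted p = 0.0612; 0.0328 with the block), which became 0.49 with the block and centring (limma adjusted p = 0.248).

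The degradation changes spread widely within each subunit and each origin class. Small-subunit genes had a median log2 change of 1.32 (15 fitted, 3 called higher) and large-subunit genes 1.27 (25 fitted, 7 called higher). Genes with a bacterial counterpart had a median of 1.47 (25 fitted, 7 called) and mitochondria-specific genes 0.78 (15 fitted, 3 called), with 20.5% of all genes called higher in the same fit. After centring these 4 medians were 0.46, 0.42, 0.61 and -0.073, so that of the mitochondria-specific genes turned its sign. There 7 of the 15 mitochondria-specific genes lay above 0. That class counts Mrps18a and Mrps18b, at -0.44 and -0.65 after centring, and its median without them was not computed. The differences between the 4 medians are descriptions and were not tested. In the authors' deposited table, 18 of 46 members were called higher and 2 lower (Mrpl50 and Mrpl51), against 29.2% and 7.09% of all genes there, and all 10 genes above were among the 18. That table also gave values for members with a missing library, among them Mrpl50 and Mrpl51, and gave no test for Mrps7.

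**Figure D4:**
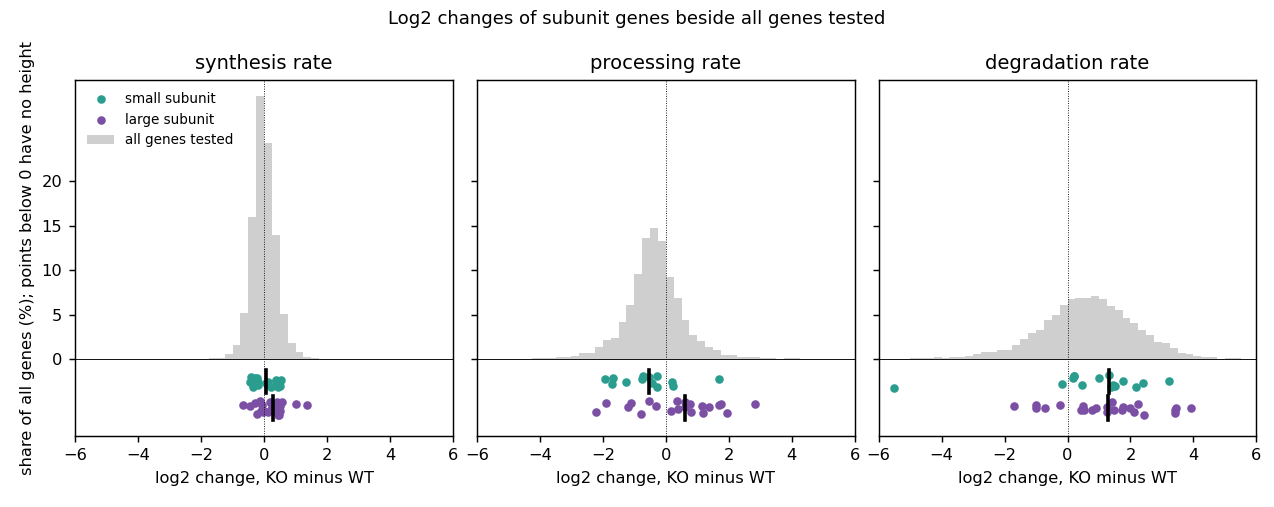
Distribution of log2 changes (knockout minus wild type, horizontal) over all genes tested (grey bars, percent of genes, vertical), with each small-subunit and large-subunit gene as a point below and a black bar at each subunit's median; the axis ends at -6 and 6 and leaves out 17 genes for synthesis, 5 for processing and 22 for degradation. Synthesis points gather around 0, processing medians lie on either side of 0 (-0.53 and 0.60), and degradation medians lie at 1.32 and 1.27.

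For synthesis rate no member passed the test. The median log2 change over 42 members was 0.21 (0.28 at 20 min, 0.09 at 60 min), against -0.03 over all 5794 genes tested. The change lay above 0 in 27 of the 42 (64.3%), against 46.6% of all genes. It was above 0 at both times in 15 members (35.7%), against 24.3% of all genes, and below 0 at both in 7 (16.7%), against 32.3%. By limma 0 members were called, against 0% of all genes called higher and 0% called lower; 0 members had an unadjusted p under 0.05, and 1 did with labelling time as a block. Both knockout libraries exceeded both wild-type libraries in 7 members, against 8.92% of all genes, and lay below both in 5, against 9.2%. The sign differed between labelling times in 20 of the 42 members (47.6%), near the 43.4% of all genes. Mrpl55 had the highest log2 difference, from 0.298 and 0.355 to 1.47 and 0.467, with a value of 1.35 (SE 0.65), and the gap was wider at 20 min. Mrpl3, a core protein of the large subunit, went from 0.810 and 0.855 to 2.38 and 1.19 (log2 change 1.01, SE 0.49). The lowest were those of Mrpl54, from 1.58 and 0.587 to 0.537 and 0.686 (log2 change -0.66, SE 0.59), and Mrps18c, from 2.21 and 0.741 to 0.633 and 1.37 (-0.46, SE 0.71). Neither was lower at both times, and the limma adjusted p was 1.00 for each of the 4 genes.

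For processing rate, the medians of the subunits lay on either side of 0. By limma 0 of 35 members were called, against 0% of all genes called higher and 0% lower, and an unadjusted p under 0.05 was found for 12 (34.3%), against 15.4% of all genes. The groups were separate in 10 members with the knockout higher, against 11.5% of all genes, and in 10 with the knockout lower, against 35.1%. Over the members the median log2 change was -0.06 (0.29 after centring), against -0.36 over all 5082 genes tested. The 13 small-subunit genes had a median of -0.53, with 3 above 0 and 10 below, and the 21 large-subunit genes a median of 0.60, with 14 above and 7 below. Of all genes, 29.9% lay above 0, so the small-subunit share of 23.1% is near the background and the large-subunit share is 66.7%. After centring 5 of the 13 and 15 of the 21 lay above 0, against 49.2% of all genes. The difference between these medians was -1.13, and -1.03 at 20 min and -1.08 at 60 min. It kept its sign under each alternative run, between -1.25 and -0.72 in those that moved it, and is a description without a test.

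With labelling time as a block, 7 members were called higher for processing and 6 lower, against 6.26% and 19.3% of all genes. In that fit the large subunit gave 6 rises (Mrpl18, Mrpl21, Mrpl24, Mrpl38, Mrpl44 and Mrpl55) and 3 falls (Mrpl1, Mrpl2 and Mrpl35), and the small subunit gave 1 rise (Mrps17) and 3 falls (Mrps2, Mrps5 and Mrps7). Without the block none of these passed.

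**Figure D5:**
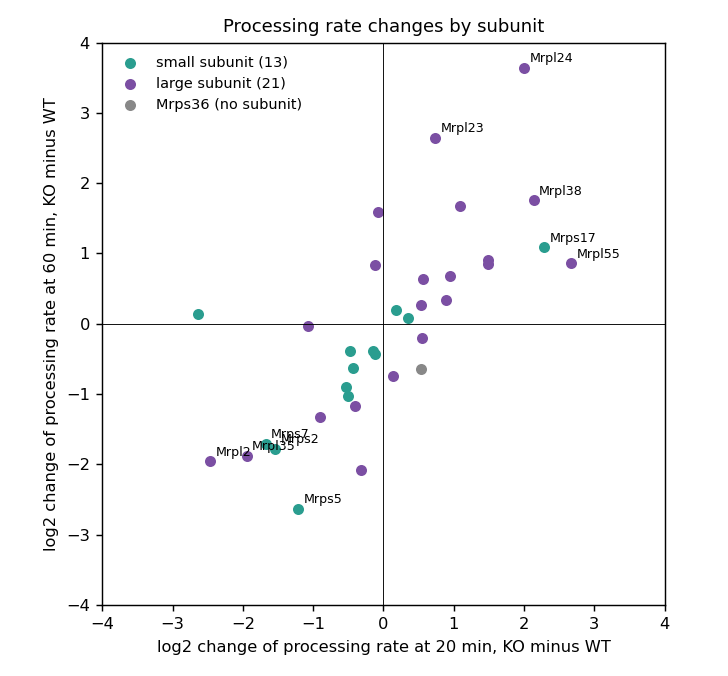
Log2 change of processing rate at 20 min (horizontal) against 60 min (vertical), knockout minus wild type, for the 35 members fitted, coloured by subunit. Of the large-subunit points, 11 of 21 lie above 0 at both times and 6 below 0 at both; of the small-subunit points, 3 of 13 lie above and 9 below; of all genes 20.8% lie above at both and 58.3% below.

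Mrpl24 had the highest log2 difference of processing rate, from 1.62 and 0.495 in wild type to 6.47 and 6.19 in the knockout, a log2 difference of 2.82 (SE 0.65, limma adjusted p = 0.163; 0.0163 with the block). Mrpl38 went from 2.44 and 2.61 to 10.7 and 8.85, a log2 difference of 1.95 (SE 0.41, limma adjusted p = 0.147; 0.0119 with the block). Both are among the genes whose degradation rate rose. Mrpl2, also among those, went the other way for processing, from 11.7 and 8.41 to 2.12 and 2.17, a log2 difference of -2.21 (SE 0.42, limma adjusted p = 0.128; 0.0102 with the block). Mrps5, a core protein of the small subunit near the mRNA entry, went from 9.24 and 15.1 to 3.99 and 2.43, a log2 difference of -1.92 (SE 0.50, limma adjusted p = 0.182; 0.0288 with the block). In these 4 genes the genotypes did not overlap. With the block and centring together the first 3 passed, and Mrps5 did not (limma adjusted p = 0.0742).

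The order of members by degradation rate was little shared between genotypes. Spearman's rho between wild type and knockout was 0.14 at 20 min (46 members, against 0.24 over all genes) and 0.00015 at 60 min (43 members, against 0.32 over all genes), whereas it was 0.82 between the knockout times and 0.67 between the wild-type times. For synthesis rate rho between genotypes was 0.55 at 20 min, against 0.88 over all genes, and 0.92 at 60 min, against 0.97. These correlations are descriptions, since each rests on a pair of libraries. In wild type, members with longer transcripts had higher degradation rates (rho 0.51 over 66 members, against -0.04 over all genes), and members richer in G and C had lower ones (rho -0.57, against -0.26). In the knockout the same correlations over 43 members were -0.13 and -0.20, against -0.12 and 0.097 over all genes, and the log2 change ran against transcript length (rho -0.51 over 41 members, against -0.09 over all genes).

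Other genes of mitochondrial gene expression were read from the same fit. Of the subunits without an Mrp number, 0 of 3 fitted were called for degradation, of the translation factors 1 of 9, of the assembly and rRNA modification factors 2 higher and 1 lower of 11, of the mitochondrial aminoacyl-tRNA synthetases 0 of 7, and of the genes for mitochondrial DNA transcription and RNA processing 3 higher and 1 lower of 13, against 20.5% of all genes called higher and 2.57% lower. With labelling time as a block the counts were, in the same order, 2 higher of 3, 4 higher of 9, 5 higher and 1 lower of 11, 1 higher and 1 lower of 7, and 5 higher and 4 lower of 13, against 38.2% and 9.76%. Dap3, a GTP-binding small-subunit protein, was among the first group with a log2 difference of 1.43 (SE 0.64, limma adjusted p = 0.163; 0.0342 with the block and 0.248 with the block and centring).

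Mtfmt, which formylates the initiator methionyl-tRNA, went from 0.0767 and 0.131 to 0.635 and 0.710, a log2 difference of 2.74 (SE 0.41, limma adjusted p = 0.0246). The other called genes of these lists, at the same limma threshold, follow. Mtg1, a GTPase of large-subunit assembly, rose by 4.42 (SE 0.33) and Trmt61b, an RNA methyltransferase, by 2.02 (SE 0.39). Eral1, which binds the small-subunit rRNA, fell by 1.91 (SE 0.44). Polrmt, the mitochondrial RNA polymerase, rose by 2.60 (SE 0.35), and Pnpt1, a mitochondrial exoribonuclease, by 2.68 (SE 0.50). Fastkd3, a FAST kinase domain protein of mitochondrial RNA processing that is named after its values were seen, rose by 1.70 (SE 0.39). Tfam, the factor that packages mitochondrial DNA and starts its transcription, went from 0.387 and 0.456 to 0.0162 and 0.0660, a log2 difference of -3.68 (SE 0.76). After centring without the block, Mtg1 kept its call (log2 difference 3.56, limma adjusted p = 0.0497). The 5 other genes that rose had log2 differences from 0.84 to 1.88 there, with adjusted p from 0.0603 to 0.191. Those of Eral1 and Tfam grew to -2.76 and -4.54, with an adjusted p of 0.0517 for each. With the block and centring together, 6 of the 8 passed, all but Trmt61b and Fastkd3. For comparison, 9 of 26 cytosolic ribosomal protein genes were called higher for degradation (median log2 change 1.06), as were 10 of 31 nuclear genes of oxidative phosphorylation (median 1.14), against 20.5% and a median of 0.65 over all genes. After centring, 0 of each list were called, against 0.56% and 1.05% of all genes, and the medians were 0.20 and 0.29. With the block added 4 were higher and 5 lower in the first list and 8 higher and 4 lower in the second, against 13.9% and 22.4%.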

How the data were processed

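The members and all gene lists were chosen with earlier results of these data known. The authors deposited linear synthesis, processing and degradation rates for the 4 libraries with label, and the labels name the table after INSPEcT; cutadapt, Bowtie2, TopHat2, HISAT2, limma and the builds mm10, dm6 and sacCer3 are listed in the submitters' processing notes without roles. The authors also deposited limma tables of log2 changes, p-values and scores (moderated statistics, not used further), per the file headers. Libraries were 2 per genotype; 0 columns of per-sample values were left unused, and the inputs and unlabelled pull-downs have no columns of their own.

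Genes with a rate above 0 in all 4 libraries were compared on the log2 scale with no pseudocount by limma (3.58.1, R 4.3.3). The settings were eBayes without trend, two-sided, Benjamini-Hochberg over all genes and a threshold of 0.05. The fit was also tested on simulated data, with independent libraries, the same spread in every gene and no effect of labelling time. The real libraries differ from that, so the simulation cannot show how the test performs on them. The labels pair libraries by labelling time; the difference between times correlated between genotypes across genes (Spearman's rho between 0.65 and 0.73).

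Genes named were: members called without a block; the 3 highest and 3 lowest wild-type rates; the 2 largest rises and falls in synthesis and processing; Mrps18 paralogs, Mrps30 and Mrps36; members listed in 1 genotype (the first 3 by synthesis rate where over 6); called pathway genes, up to 3 per list; and Fmr1. Alternatives were a block, centring, quantile normalization, a low-rate filter, a pseudocount (10th percentile), a trend, a stricter threshold, the authors' tables and leaving out each library; leaving out overlapping members or Mrps36 was added after seeing the data. Gene models came from GENCODE M21 and promoters from RefSeq. Mrpl53, Mrpl57 and Mrpl58 were not analysed here.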

Additional observations from a re-analysis of the deposited data

Results flagged for a closer look

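Of the 42 members fitted for synthesis rate, 20 (47.6%, against 43.4% of all genes) had log2 changes of opposite sign at the labelling times, with 1 library per genotype at each time, and 3 of these are among the members chosen for naming by their synthesis rate. The change at 60 min minus that at 20 min was 0.65 for Mrpl44 (-0.36 at 20 min, 0.29 at 60 min), 1.78 for Mrpl54 (-1.55 and 0.23) and 2.69 for Mrps18c (-1.80 and 0.88). These differences were not tested. None of the 3 passed the test for synthesis rate.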

How the results depend on the processing

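With labelling time as a replicate block, 24 members were called for degradation in place of 10, 13 for processing in place of 0, and 0 for synthesis. Degradation calls numbered 1 after centring, 12 with the block and centring (8 higher, 4 lower), 4 after quantile normalization, 16 with low rates left out, 20 with the pseudocount, 17 with a trend, 0 at a threshold of 0.01 and 20 in the authors' deposited table. Of all genes, 23.1% were called for degradation as reported, 48.0% with the block and, in the order of those settings, 1.61%, 36.2%, 10.4%, 32.1%, 33.1%, 28.1%, 0% and 36.3%. Their median of 1.32 became 0.46 after centring (with or without the block), 0.49 after quantile normalization and 0.99 with the pseudocount. The small minus large median for degradation (0.04) became -0.029 with low rates left out and 0.24 in the authors' table. Processing calls numbered 11 with the block and centring (13.5% of all genes; 25.6% with the block alone). The processing median of -0.06 became 0.29 after centring (with or without the block), 0.32 after quantile normalization, -0.27 with low rates left out, -0.016 with the pseudocount, -0.29 in the authors' table and -0.16 without overlapping members. The small minus large difference for processing became -0.79, -0.72 and -0.80 with low rates left out, with the pseudocount and in the authors' table. After centring, signs turned in 8 of 41 members for degradation, 4 of 35 for processing and 0 of 42 for synthesis. Those whose log2 change in that rate was followed through every setting were Mrps23 processing (0.078 after centring, with or without the block, and 0.15 after quantile normalization), Mrps18a degradation (-0.44 and -0.041) and Mrps18b degradation (-0.65 and -0.60). The causes were not tested.

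Leaving out 1 library gave 0 to 12 degradation calls (0.017% to 19.5% of all genes), with medians from 1.05 to 1.54 for degradation, -0.22 to 0.11 for processing and 0.0041 to 0.38 for synthesis. Small minus large medians ran from -0.34 to 0.028 for degradation, -1.25 to -0.83 for processing and -0.38 to 0.058 for synthesis. Single genes whose sign turned ran from -0.53 to 0.45 (Mrpl44), -1.38 to 0.049 (Mrpl54), -1.25 to 0.33 (Mrps18c) and -0.54 to 0.17 (Mrps2) for synthesis, and from -0.34 to 0.75 for Mrps18b degradation. Each lone library is assumed to vary like the other genotype. Depth is unknown, so no counting error can be given for low rates.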
